A study of Mus musculus with 12 samples.

Results

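The epidermal growth factor receptor, EGFR, is a receptor tyrosine kinase that drives proliferation and restrains terminal differentiation of keratinocytes through ERK signalling. The outer root sheath (ORS) is the outer layer of the hair follicle and is continuous with the epidermis at the skin surface. The quantity described here is the difference between the Egfr knockout effects in ORS and in IFE cells of mouse skin. It was computed for each autosomal gene as the ORS knockout minus ORS control difference, minus the IFE knockout minus IFE control difference. It rests on 8 of the 12 libraries of the series, 2 in each of 4 groups, and on 13982 autosomal genes that passed a filter on low counts, of 24483 listed.

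The ORS and IFE knockouts have the genotype EGFR_delta_ep in the labels, and the ORS and IFE controls have EGFR_fl_fl, a floxed Egfr allele that is present in the controls too. The labels name neither the Cre driver nor the age of the mice. They describe all cells as sorted, but give no gate, and they join the abbreviation IFE, widely used for interfollicular epidermis, to the words inner root sheath. Libraries are called by the number that opens their titles, E358 and E359 for both knockout groups, E341 and E344 for the ORS controls, and E341 and E360 for the IFE controls. Whether the 2 libraries of a group stem from different mice is not stated in the labels. By their Xist and Y-linked reads, ORS control E341 was male and E344 female, so these do not stem from the same mouse. The spread behind each p-value is that between libraries, and in the other groups it may be technical.

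Levels are counts per 1e6 reads in genes after TMM scaling (CPM), and effects are differences of mean log2(CPM + 0.5). For genes at low levels, knockout effects on this scale are smaller than the true log ratio. Where a gene is near 0 in 1 compartment only, its effect there shrinks toward 0. The difference of effects can then be larger or smaller than the true one. Reads in genes came to 26.2 and 24.7 M in ORS knockouts, 27.7 and 24.9 M in ORS controls, 13.2 and 12.7 M in IFE knockouts, and 12.5 and 11.4 M in IFE controls. The IFE effect therefore rests on fewer reads. Library totals were closer, at 48.0 to 51.3 M in ORS and 40.2 to 45.6 M in IFE. Reads in genes made up 50.6 to 54.6% of the total in ORS and 27.8 to 29.6% in IFE. This share goes with the compartment, and its part in the results was not tested. Sox9, a transcription factor of the outer root sheath, was at 1648 to 2976 CPM in the 4 ORS libraries and at 171 to 401 CPM in the 4 IFE libraries. The suprabasal epidermal keratin gene Krt10 was at 27.6 to 64.5 CPM in ORS and 656 to 1407 CPM in IFE. The 13 inner root sheath genes in the files summed to 408 to 466 CPM in ORS and 1000.3 to 1191 CPM in IFE, most of it Gata3, a transcription factor that is also found in the epidermis. Of the inner root sheath keratin genes, Krt71 was at 3.47 to 15.3 CPM in ORS and at 6.97 CPM in 1 IFE library, with no read in the other 3, and Krt27 was at up to 2.85 CPM in ORS and 3.70 CPM in IFE. Of 12 leukocyte and Langerhans cell markers, 7 had no read in any of the 8 libraries, Ptprc (the pan-leukocyte marker CD45) among them, and the list summed to 15.4 to 26.1 CPM in ORS and 21.9 to 47.1 CPM in IFE.

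The sex of the libraries, read from Xist and Y-linked genes, differed between groups. Both ORS knockouts and both IFE knockouts were female by these reads, ORS control E341 and both IFE controls were male, and ORS control E344 was female. Within IFE, genotype and sex cannot be told apart. Without ORS control E344 the sexes are matched between the compartments, since each then compares female knockouts with male controls. Gene counts and list medians without that library are given with the results.

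No autosomal gene was called as differing between the compartments in its response to the Egfr deletion, in limma's moderated test at a Benjamini-Hochberg adjusted p below 0.05. The lowest adjusted p was 0.999, and the share of genes called was 0% of 13982. At an unadjusted p below 0.05 there were 659 genes (4.71%), close to the 5% that the threshold itself allows. Of these, 307 (2.2%) had a positive difference, a knockout effect more positive in ORS than in IFE, and 352 (2.52%) had a negative one. With limma-voom the counts were 0 at the adjusted threshold and 578 unadjusted. Without IFE knockout E359, 1 gene was called, and 1282 autosomal genes passed the unadjusted threshold. Without ORS control E344, none was called and 337 passed it. Without ORS control E341, none was called and 352 passed it.

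The gene called without IFE knockout E359 was Sgk1, a serum- and glucocorticoid-induced kinase that regulates ion channels. It was singled out after its values were seen. Sgk1 was at 561 and 599 CPM in ORS knockouts, 790.2 and 745 CPM in ORS controls, 0 and 8.30 CPM in IFE knockouts, and 23.8 and 34.0 CPM in IFE controls. Its difference of effects was 3.38 ± 1.36 (SE) with all 8 libraries, with an unadjusted p of 0.0311 and an adjusted p of 0.999. Without IFE knockout E359 the difference was 5.46, with an adjusted p of 0.00698 in limma. The IFE knockout group is then a single library without a read of Sgk1, whose spread was assumed to be that of the other groups.

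The precision of the comparison depended on the level of the gene. The median SE of the difference was 0.891 over all autosomal genes tested, 0.689 over the 10398 genes that reached 10 CPM in at least 1 group, and 0.414 over the 3073 genes that reached 100 CPM. The matching half-widths of the 95% interval were 1.98, 1.53 and 0.917 on the log2 scale. For 882 genes (6.31%), 873 of them at 100 CPM or more, the whole interval lay within 1 log2 unit of 0, so that a difference of more than 2-fold lay outside it. For the other genes the interval reached past 1 log2 unit, so a difference of that size is not bounded at this depth and number of libraries.

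**Figure D1:**
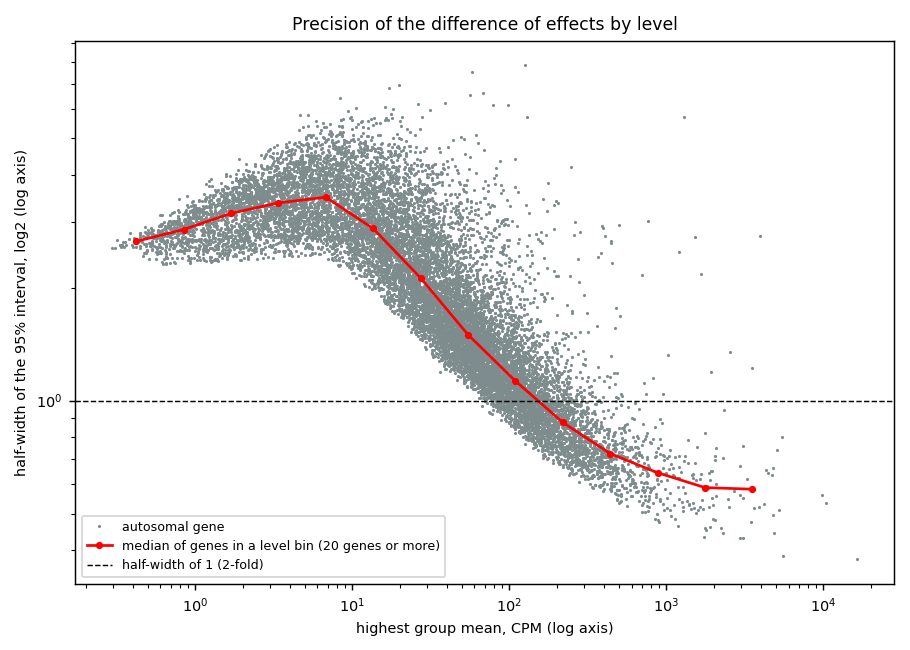
Half-width of the 95% interval of the difference of effects (vertical, log2 units on a log axis) against the highest group mean of the gene in CPM (horizontal, log axis), 1 grey point per autosomal gene; the red line joins medians of level bins and the dashed line marks 1 log2 unit. Median half-widths were 1.98 over all genes, 1.53 from 10 CPM and 0.917 from 100 CPM.

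Knockout effects were somewhat larger in IFE than in ORS across genes. The SD of the effect over the 13982 genes was 0.76 in ORS and 0.95 in IFE, and the median size of the effect was 0.333 and 0.426 on the log2 scale. The size of the effect was larger in IFE for 8021 genes (57.4%). The IFE libraries had fewer reads in genes and a lower share of reads in genes. IFE compares female knockouts with male controls, while ORS control E344 was female. ORS knockout E359 kept 55.2 CPM of Egfr, more than the other knockout libraries. The part of each of these in the larger IFE effects was not tested. The ORS and IFE effects share no library, and across the 13982 genes their Pearson correlation was 0.037 and their Spearman correlation 0.045. From 100 CPM, across 3073 genes, these values were 0.15 and 0.049. Egfr, the deleted gene, is counted in each, with effects of -4.09 in ORS and -7.72 in IFE. The correlations without Egfr were not computed. These correlations are across genes, which are not independent replicates.

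**Figure D2:**
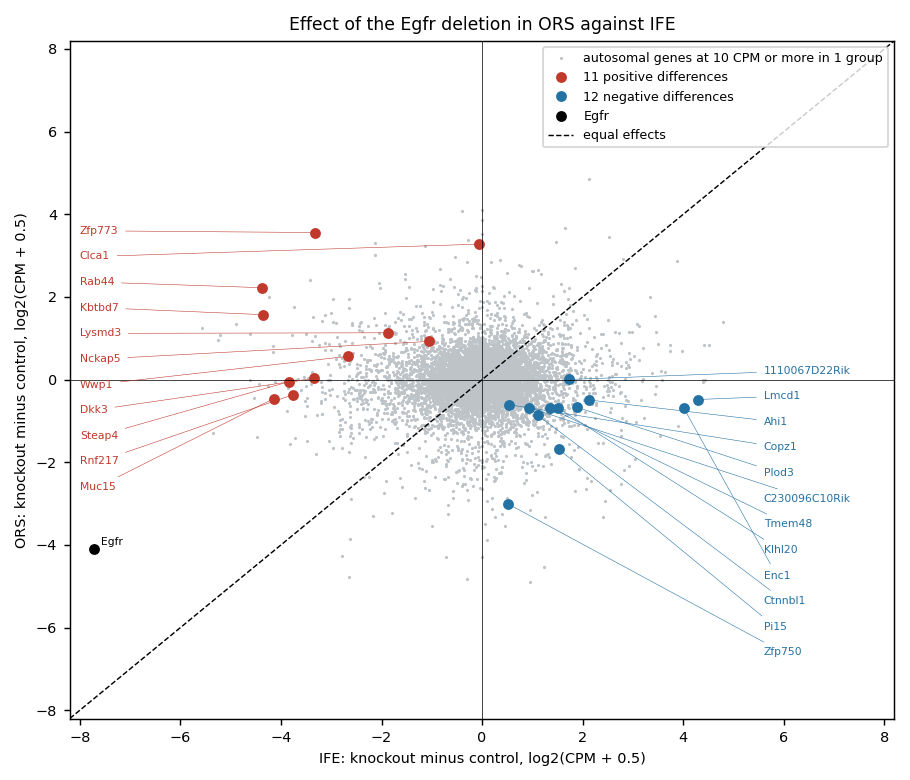
Knockout minus control effect in ORS (vertical) against that in IFE (horizontal), both in log2(CPM + 0.5), for the 10398 autosomal genes that reached 10 CPM in at least 1 group; coloured points are Egfr, 11 genes with a positive and 12 with a negative difference of effects. Points above the dashed line have a positive difference, and the cloud is wider along the IFE axis (SD 0.63 in ORS and 0.85 in IFE for the genes plotted).

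Egfr itself, the deleted gene, checks the labels. In the files it spans mm10 chromosome 11, positions 16752203 to 16918158, on the plus strand. It was at 3.71 and 55.2 CPM in ORS knockouts E358 and E359, against 273 and 248 CPM in ORS controls. In IFE it was at 0 and 0.325 CPM in knockouts, against 116 and 157 CPM in controls. Knockouts lay below controls in both compartments with no overlap, and ORS knockout E359 kept more Egfr reads than the other 3 knockout libraries. The effect was -4.09 in ORS and -7.72 in IFE, a difference of 3.63 ± 1.35 (SE, n = 2 libraries per group), with an unadjusted p of 0.0217 and an adjusted p of 0.999 in limma. The difference was 1.76 without ORS knockout E359 and 5.49 without ORS knockout E358. It was 5.19 with 0.1 CPM added before taking logs and 2.13 with 2 CPM added, because the IFE knockouts were near 0. The files do not show which exons the reads fall in, so reads from an undeleted part of the gene and cells with an intact allele cannot be told apart. In these bulk libraries, fewer cells of a type and less RNA per cell cannot be told apart either.

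The genes described next come from the 12 with a positive and the 12 with a negative difference that had the smallest unadjusted p, among autosomal genes that reached 10 CPM in at least 1 group and kept their sign without any 1 library. Of the positive ones 11 are described. All 23 genes described have an adjusted p of 0.999 in limma, so each is given as values and none as a difference that passed the test. Where a group had no reads, the difference depends on the added 0.5 CPM and is no bound. Selection on the difference favours genes with ORS and IFE effects of opposite sign, so the directions described below come in part from it. Of the 659 autosomal genes at an unadjusted p below 0.05 in limma, 576 had effects of opposite sign. In 438 (66.5%) the IFE effect was larger in size, against 57.4% of all autosomal genes tested. Small p also favours groups without overlap, whose share over all genes was not counted.

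In 10 of these 11 positive differences, IFE knockouts averaged at least 1 log2 unit below IFE controls, while ORS effects ran from -0.46 to 3.56. Steap4, a metalloreductase that reduces iron and copper, was at 227 and 499.9 CPM in ORS knockouts and 337 and 360.4 CPM in ORS controls. It was at 0 and 0.163 CPM in IFE knockouts, 0 and 2 reads, and at 7.15 and 8.39 CPM in IFE controls. Its difference of effects was 3.79 ± 0.71 (SE), with an unadjusted p of 0.000304 in limma and a range of 3.21 to 4.36 when 1 library was left out. Dkk3, a secreted glycoprotein of the dickkopf family, had 233 and 272 CPM in ORS knockouts, 252 and 241 CPM in ORS controls, 0.81 and 3.82 CPM in IFE knockouts and 18.01 and 31.05 CPM in IFE controls. The 4 ORS libraries of Dkk3 lay within a narrow range, while the IFE knockouts lay below the IFE controls. Muc15, a membrane mucin, had 13.1 and 26.3 CPM in ORS knockouts, 22.5 and 29.3 CPM in ORS controls, 1.38 and 0.57 CPM in IFE knockouts and 23.5 and 25.5 CPM in IFE controls. The ORS groups of Muc15 overlapped and the IFE groups did not.

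Wwp1, a HECT-type E3 ubiquitin ligase, was at 130.4 and 96.3 CPM in ORS knockouts, 93.4 and 61.1 CPM in ORS controls, 3.16 and 5.78 CPM in IFE knockouts and 30.2 and 29.4 CPM in IFE controls. Rnf217, a RING-type E3 ubiquitin ligase, had 15.6 and 17.7 CPM in ORS knockouts, 28.4 and 16.4 CPM in ORS controls, 2.59 and 1.46 CPM in IFE knockouts and 28.2 and 38.4 CPM in IFE controls. Kbtbd7, a BTB-kelch protein that in human cells is an adaptor of a cullin ubiquitin ligase, had 39.00 and 46.1 CPM in ORS knockouts, 19.6 and 9.87 CPM in ORS controls, 0.567 and 0 CPM in IFE knockouts and 9.68 and 21.3 CPM in IFE controls. In all of these the IFE knockouts were below the IFE controls, and for Wwp1 and Kbtbd7 the ORS knockouts were above the ORS controls. The differences of effects were 3.23 for Wwp1, 3.40 for Rnf217 and 5.92 for Kbtbd7.

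Lysmd3, a membrane protein with a LysM domain, had 36.2 and 39.8 CPM in ORS knockouts, 23.1 and 12.5 CPM in ORS controls, 17.3 and 10.01 CPM in IFE knockouts and 39.9 and 61.2 CPM in IFE controls. Its effect was 1.13 in ORS and -1.87 in IFE. Nckap5 had an effect of 0.93 in ORS and -1.05 in IFE. For both genes the ORS knockouts lay above the ORS controls and the IFE knockouts below the IFE controls.

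The other 3 had a group with at most 20 reads in each library, as had Steap4 (0 and 2 reads), Kbtbd7 (7 and 0 reads) and Muc15 (17 and 7 reads) in IFE knockouts. Zfp773, a zinc finger gene, had 15.1 and 6.53 CPM in ORS knockouts and 0 and 1.08 CPM in ORS controls, with no read in the IFE knockouts and 3.11 and 6.498 CPM in the IFE controls. Rab44, a Rab-family GTPase, had 0.594 and 4.49 CPM in ORS knockouts, no read in the ORS controls, 0 and 0.163 CPM in IFE knockouts and 12.03 and 10.8 CPM in IFE controls. The gene listed as Clca1, whose position matches the RefSeq gene Clca3a1, differed in the other compartment. It was at 6.95 and 10.3 CPM in ORS knockouts and 0.175 and 0.771 CPM in ORS controls, and its IFE groups overlapped at 128 and 95.9 CPM in knockouts and 101 and 133 CPM in controls.

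**Figure D3:**
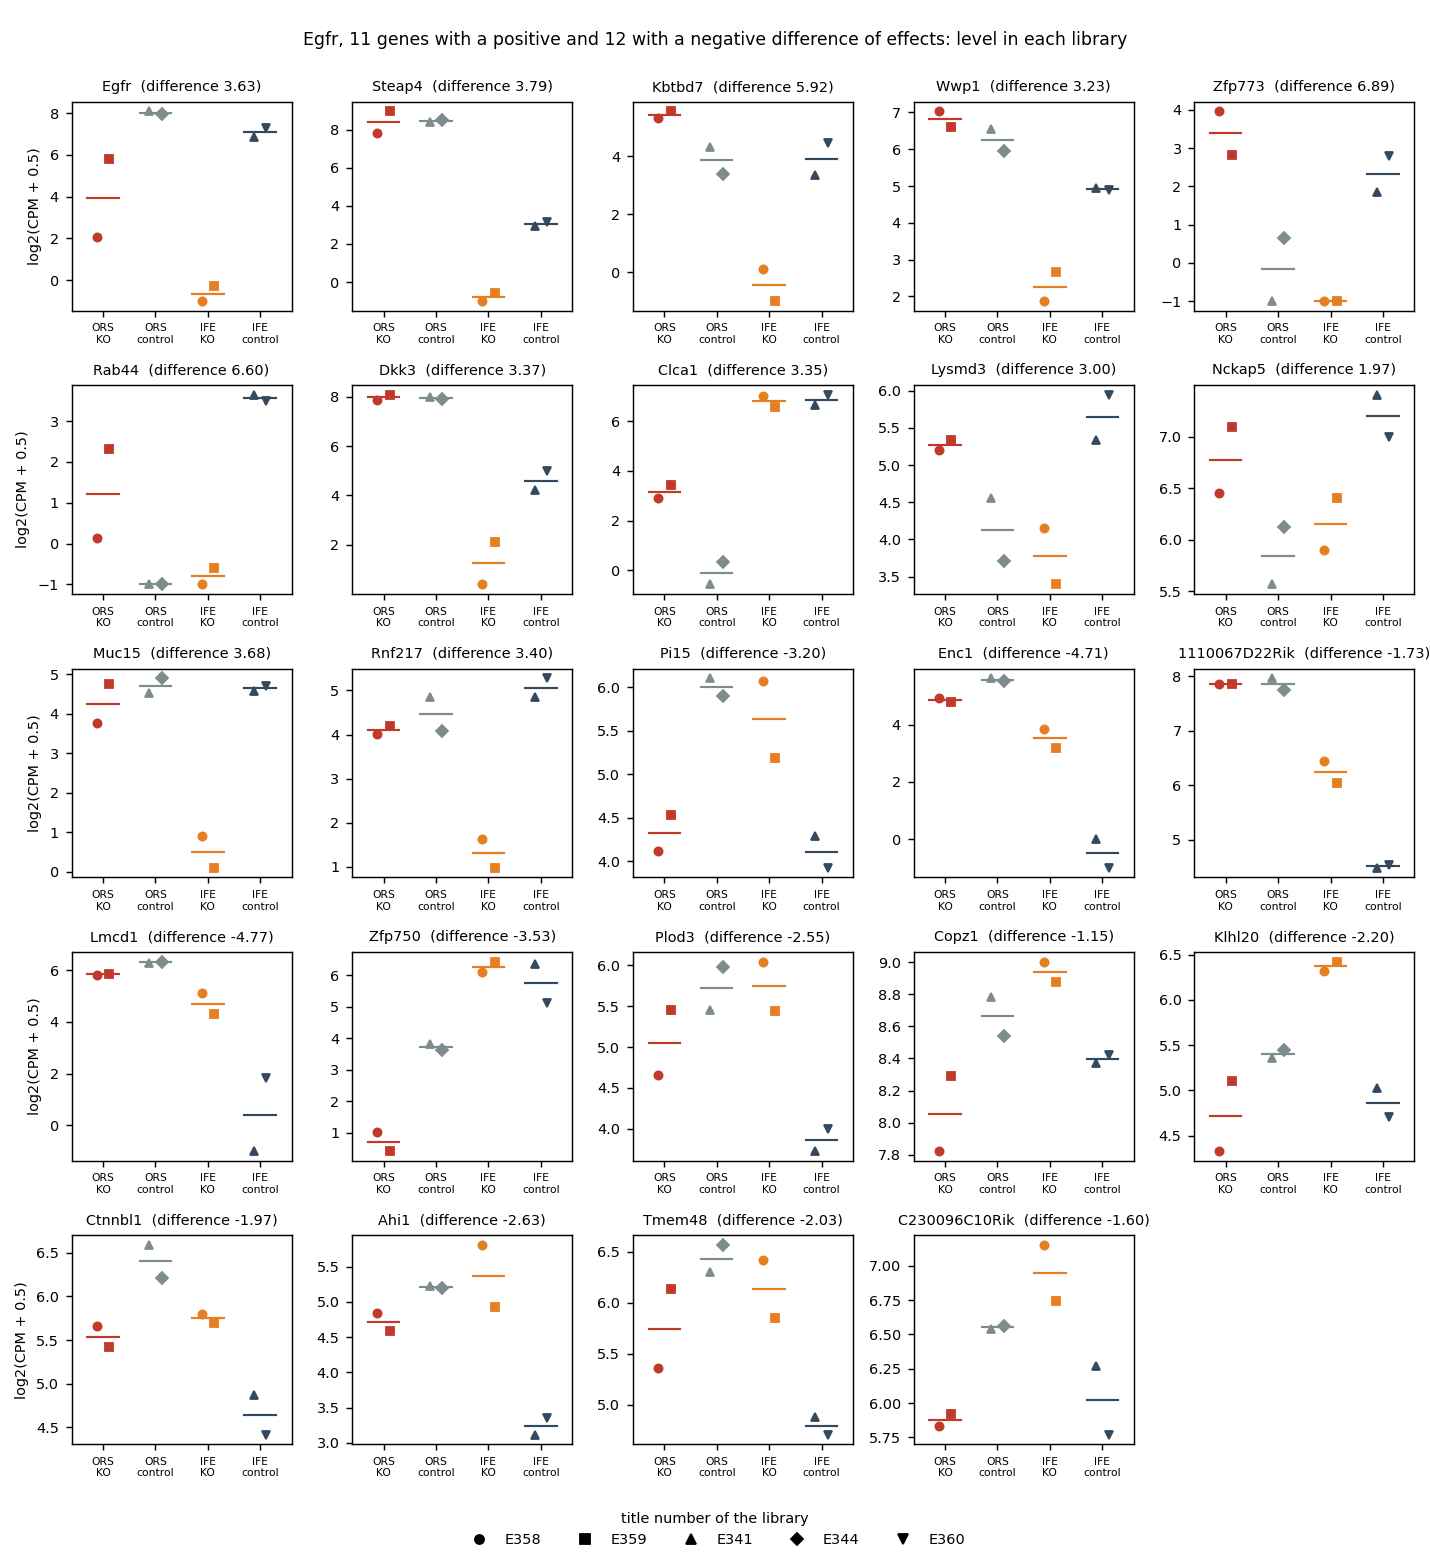
Level in each library, as log2(CPM + 0.5) on the vertical axis, of Egfr, the 11 genes with a positive and the 12 with a negative difference of effects; horizontal positions are ORS knockout (KO), ORS control, IFE knockout and IFE control, the marker shape gives the title number, the short lines are group means, and each panel has its own scale. In 10 of the 11 positive panels, all but Clca1, the IFE knockout mean lies at least 1 log2 unit below the IFE control mean. Selection of the genes on the difference of effects favours this.

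The negative differences mostly combined higher levels in IFE knockouts than in IFE controls with lower or equal levels in ORS knockouts. Enc1, an actin-binding BTB-kelch protein, had 30.2 and 27.5 CPM in ORS knockouts, 48.9 and 45.03 CPM in ORS controls, 13.9 and 8.63 CPM in IFE knockouts, and 0.505 and 0 CPM in IFE controls, which held 6 and 0 reads. Lmcd1, a LIM-domain transcriptional regulator, had 55.5 and 57.7 CPM in ORS knockouts, 78.1 and 80.3 CPM in ORS controls, 34.04 and 19.3 CPM in IFE knockouts and 0 and 3.07 CPM in IFE controls. Neither gene had overlapping groups in either compartment. The effect of Enc1 was -0.69 in ORS and 4.01 in IFE, a difference of -4.71 ± 0.995 (SE) with an unadjusted p of 0.000728 in limma. The effect of Lmcd1 was -0.48 in ORS and 4.29 in IFE, and its difference ranged over -6.19 to -3.35 when 1 library was left out.

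Pi15, a secreted protein of the CAP family named as a peptidase inhibitor, had 16.9 and 22.6 CPM in ORS knockouts, 68.3 and 59.2 CPM in ORS controls, 66.9 and 35.9 CPM in IFE knockouts and 19.1 and 14.7 CPM in IFE controls. Knockouts were thus lower in ORS and higher in IFE, with a difference of -3.20 ± 0.65 (SE). The gene listed as 1110067D22Rik, Lgalsl in RefSeq, encodes a galectin-like protein. It was at 233 and 233 CPM in ORS knockouts and 250.2 and 215 CPM in ORS controls, with 86.6 and 65.4 CPM in IFE knockouts and 21.9 and 22.7 CPM in IFE controls. Its ORS groups overlapped, and its IFE knockouts lay above its IFE controls.

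Zfp750, a transcription factor that promotes terminal epidermal differentiation, stood apart from this pattern. It was at 1.52 and 0.831 CPM in ORS knockouts, against 13.6 and 11.95 CPM in ORS controls. In IFE its groups overlapped, at 67.7 and 86.3 CPM in knockouts and 82.1 and 34.2 CPM in controls. The effect was -3.01 in ORS and 0.52 in IFE, a difference of -3.53 ± 0.87 (SE) with an unadjusted p of 0.00208 in limma.

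The other 7 negative differences had ORS effects between -0.86 and -0.49. Plod3, a lysyl hydroxylase that modifies collagen, had an effect of -0.67 in ORS and 1.88 in IFE. Klhl20, a kelch-like adaptor of a cullin ubiquitin ligase, had effects of -0.69 in ORS and 1.51 in IFE. Ahi1, a protein of the base of the primary cilium, had effects of -0.49 in ORS and 2.13 in IFE. In these 3 the IFE knockouts lay above the IFE controls, and the ORS knockouts below the ORS controls. Ctnnbl1, a protein associated with the spliceosome, had effects of -0.86 in ORS and 1.11 in IFE. Tmem48, the transmembrane nucleoporin Ndc1 in RefSeq, had effects of -0.68 in ORS and 1.35 in IFE. C230096C10Rik had effects of -0.67 in ORS and 0.93 in IFE. Copz1, a subunit of the COPI vesicle coat, closed the 12. It had 226 and 313 CPM in ORS knockouts, 440.2 and 372 CPM in ORS controls, 513 and 469.9 CPM in IFE knockouts and 331 and 343 CPM in IFE controls, a difference of -1.15 ± 0.30 (SE).

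Gene lists of signalling pathways and keratinocyte programmes are described by counts and medians, to be read beside those of all 13982 autosomal genes, of which 7027 had a positive and 6955 a negative difference, with a median of 0.01. No list member was called. At an unadjusted p below 0.05 in limma, 2.2% of all autosomal genes were positive and 2.52% negative. Members were named by the smallest p of their list, which favours groups without overlap. The share of all genes without overlap was not counted. In the ERBB pathway, 15 receptor and regulator genes had a median of 0.07, with 8 positive and 7 negative. Only Egfr among these reached an unadjusted p below 0.05. Cbl, a ubiquitin ligase that targets the activated receptor, had 6.46 and 42.3 CPM in ORS knockouts, 27.6 and 25.4 CPM in ORS controls, 4.05 and 12.9 CPM in IFE knockouts and 40.6 and 56.5 CPM in IFE controls, with an unadjusted p of 0.121 in limma. Rhbdf1, an inactive rhomboid that regulates the shedding of EGFR ligands, had an effect of -1.37 in ORS and 0.10 in IFE. Ligand genes had few reads. Of 7 listed, 4 passed the filter, and Epgn, the ligand epigen, was at 0 and 0 CPM in ORS knockouts, 0 and 1.31 CPM in ORS controls, 13.9 and 11.5 CPM in IFE knockouts and 10.6 and 1.26 CPM in IFE controls. Hbegf, the heparin-binding ligand, had 1.56 and 0.378 CPM in ORS knockouts, 13.1 and 7.02 CPM in ORS controls, 1.94 and 2.12 CPM in IFE knockouts, and 18.5 and 0 CPM in IFE controls, which lay far apart.

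Downstream of the receptor, the 19 ERK feedback and target genes had a median difference of -0.02, ranging over -0.33 to 0.18 when 1 library was left out, with 9 positive and 10 negative, and none at an unadjusted p below 0.05. Ccnd1, which encodes the G1 cyclin D1, was at 411 and 333 CPM in ORS knockouts, 446 and 485 CPM in ORS controls, 164 and 179 CPM in IFE knockouts and 133 and 194 CPM in IFE controls, and its difference had a 95% interval of -1.17 to 0.32. Of 21 immediate-early and AP-1 genes, 7 had a positive and 14 a negative difference, with a median of -0.34, which was -0.06 without IFE knockout E359 and -0.68 without IFE knockout E358. The median knockout effect of this list was close in the compartments, -0.50 in ORS and -0.49 in IFE. Egr1, a zinc finger factor induced within minutes of growth factor signalling, was at 32.2 and 19.9 CPM in ORS knockouts, against 150.5 and 237 CPM in ORS controls. In IFE it was at 34.8 and 15.9 CPM in knockouts and 82.5 and 15.2 CPM in controls, and these groups overlapped. Its difference was -2.29 ± 1.001 (SE), with an unadjusted p of 0.0444 in limma. Fosb and Junb, subunits of the AP-1 factor, had differences of -2.18 and -1.27.

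Among other signalling lists, the 33 WNT genes had a median of 0.13, 0.42 without ORS knockout E359, with 20 positive and 13 negative. Of the 33, 4 were positive and 0 negative at an unadjusted p below 0.05 in limma, against 2.2% and 2.52% of all autosomal genes. Wnt3, a WNT ligand, was at 6.98 and 7.78 CPM in ORS knockouts and 1.401 and 1.31 CPM in ORS controls, against 286 and 317 CPM in IFE knockouts and 276 and 273 CPM in IFE controls. The ORS groups of Wnt3 did not overlap, at a level far below that of IFE, and the difference was 1.95 ± 0.56 (SE), with an unadjusted p of 0.00553 in limma. The 21 BMP and TGF-beta genes had a median of 0.49, with 12 positive and 9 negative, and this median was 0.05 without IFE knockout E359. Id1, a target of BMP signalling, had 107 and 73.3 CPM in ORS knockouts, 46.4 and 59.1 CPM in ORS controls, 43.4 and 51.3 CPM in IFE knockouts and 61.7 and 66.7 CPM in IFE controls. Ltbp1, which binds latent TGF-beta, had an effect of 0.06 in ORS and -1.51 in IFE. In the Notch list (11 genes, median -0.06, and 0.20 without IFE knockout E358), the ligand gene Jag1 had 103 and 142 CPM in ORS knockouts, 75.2 and 70.8 CPM in ORS controls, 98.9 and 101 CPM in IFE knockouts and 157 and 128 CPM in IFE controls. Jag1 thus lay higher in knockouts in ORS and lower in IFE, without overlap, with a difference of 1.23 ± 0.39 (SE) and an unadjusted p of 0.0105 in limma.

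The cornified envelope is the protein shell of dead surface keratinocytes. Of 36 listed genes 25 passed the filter, 22 with a positive and 3 with a negative difference, and the median was 3.57. In limma, 6 were positive and 1 negative at an unadjusted p below 0.05, against 2.2% and 2.52% of all autosomal genes. The libraries of a group did not share a level. The summed level of the list was 1759 and 247 CPM in ORS knockouts E358 and E359, 405 and 284 CPM in ORS controls, 153 and 95.3 CPM in IFE knockouts, and 1638 and 207 CPM in IFE controls E341 and E360. The list was high in 1 ORS knockout and in 1 IFE control. Without ORS knockout E358 the median was 1.59, and without ORS knockout E359 it was 6.45. Each fit without 1 library keeps at least 1 of these high libraries, and a fit without both was not made. Lce1g, a late cornified envelope gene, had 98.8 and 4.61 CPM in ORS knockouts, 7.21 and 3.59 CPM in ORS controls, 0 and 1.87 CPM in IFE knockouts and 86.8 and 4.33 CPM in IFE controls. Lce1 genes are near-identical copies between which reads can be split, which makes the value of each uncertain. Sprr1a, an envelope precursor, went the other way, with 0 and 0.113 CPM in ORS knockouts, 8.12 and 30.6 CPM in ORS controls, 1.54 and 3.09 CPM in IFE knockouts and 3.37 and 0 CPM in IFE controls. Tgm5, a transglutaminase, had close ORS levels at 174 and 229 CPM in knockouts and 180.4 and 224 CPM in controls, and IFE levels of 17.8 and 7.57 CPM in knockouts and 30.2 and 48.01 CPM in controls.

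**Figure D4:**
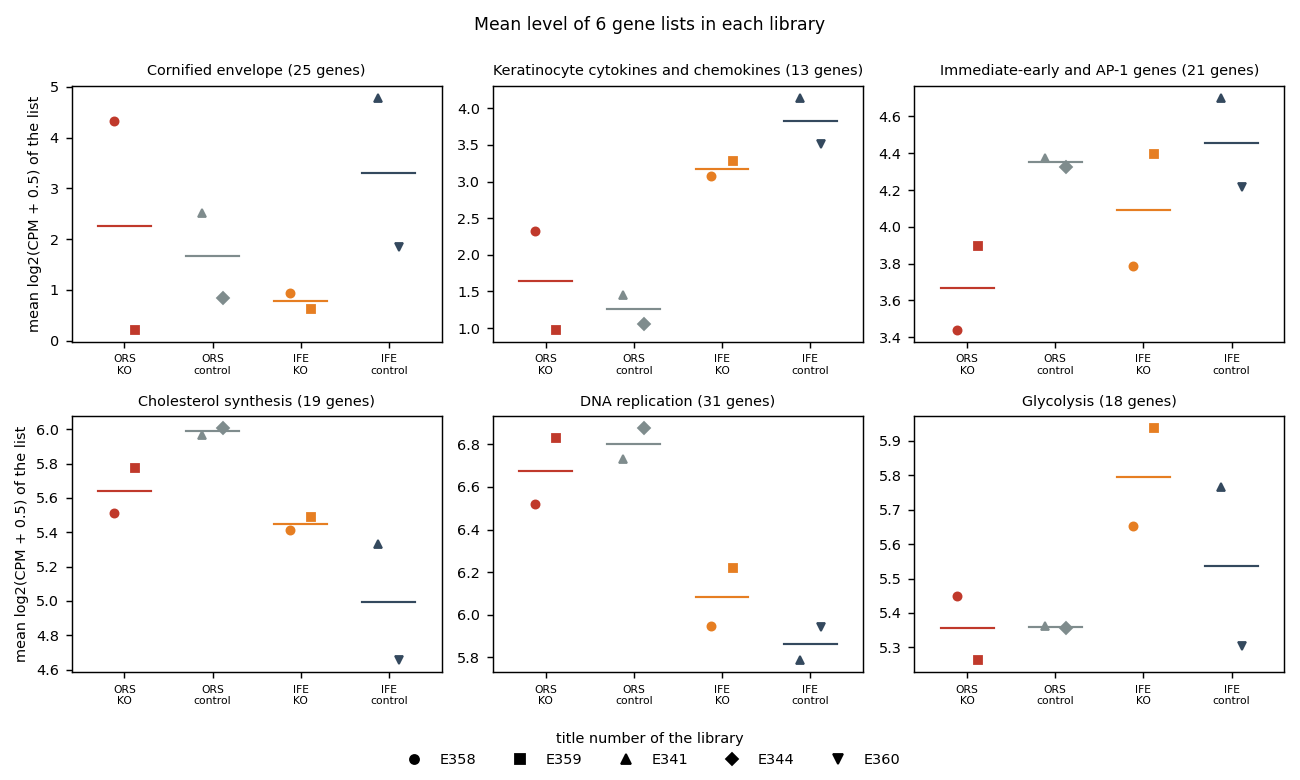
Mean log2(CPM + 0.5) of the tested genes of 6 lists in each library (vertical), for ORS knockout (KO), ORS control, IFE knockout and IFE control (horizontal); marker shapes give title numbers, short lines are group means and scales differ between panels. For the cornified envelope, ORS knockout E358 (4.33) and IFE control E341 (4.78) lie above the other 6 libraries (0.21 to 2.51).

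Suprabasal and stress keratinocyte genes gave no common direction. The 21 suprabasal genes had a median of 0.31, which was -0.16 without ORS control E344 and -0.13 without IFE control E341. Krt78, a type II keratin, had the smallest unadjusted p of the list, 9.94e-05 in limma, on levels of 11.7 and 6.95 CPM in ORS knockouts, 0.035 and 0 CPM in ORS controls, 0 reads in both IFE knockouts and 3.37 and 10.5 CPM in IFE controls. The 16 stress keratinocyte genes had a median of 1.27, which was -0.49 without IFE control E341. Of the 16, 3 were positive and 1 negative at an unadjusted p below 0.05 in limma, against 2.2% and 2.52% of all autosomal genes. Krt17, a keratin of the outer root sheath and of wounded epidermis, was at 3812 and 3794 CPM in ORS knockouts and 4116 and 4479 CPM in ORS controls. In IFE it was at 3677 and 4989 CPM in knockouts and 1997 and 3167 CPM in controls, without overlap. Its difference was -0.94 ± 0.30 (SE), with an unadjusted p of 0.00918 in limma. Reads of Krt17 may be shared with near-identical copies. Serpinb3a and Serpinb3b, protease inhibitor genes of near-identical sequence, had no read in IFE knockouts. In IFE controls Serpinb3a was at 13.04 and 8.21 CPM and Serpinb3b at 13.4 and 9.12 CPM. Neither gene had a read in ORS knockouts. ORS controls E341 and E344 held 2 and 0 reads of Serpinb3a and 12 and 0 reads of Serpinb3b. With ORS near 0, their differences of 4.35 and 4.09 mostly restate the IFE effects of -4.44 and -4.53.

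Among basal genes, several had narrow intervals. Krt15, a keratin of basal cells and of the bulge, was at 5173 and 4989 CPM in ORS knockouts, 4164 and 4208 CPM in ORS controls, 4869 and 4315 CPM in IFE knockouts and 5927 and 5066 CPM in IFE controls. Knockouts lay above controls in ORS and below them in IFE, and the difference was 0.54, with a 95% interval of 0.15 to 0.92 and an unadjusted p of 0.0111 in limma. Of the 16 basal keratinocyte and hemidesmosome genes, 7 had a 95% interval wholly within 1 log2 unit of 0, and the median was 0.14, and -0.0027 without ORS knockout E359. Col7a1, the anchoring fibril collagen, and Lamb3, a laminin chain, had differences of 0.81 and -0.45. Among bulge and outer root sheath genes (20 tested, median -0.24, and -0.01 without ORS knockout E359), the transcription factor gene Lhx2 overlapped between the ORS groups, at 322 and 244 CPM in knockouts and 231 and 265 CPM in controls. Its IFE groups did not overlap, at 6.08 and 6.35 CPM in knockouts and 3.87 and 1.35 CPM in controls, and its difference was -1.06. Among junction genes (15 tested, median -0.20, and -0.50 without ORS knockout E359 and 0.11 without ORS knockout E358), Dsp, which encodes desmoplakin, had a difference of 0.33, with a 95% interval of -0.12 to 0.78. Perp, a desmosome-associated membrane protein, was at 833 and 1185 CPM in ORS knockouts, 745 and 1095 CPM in ORS controls, 3472 and 2709 CPM in IFE knockouts and 1446 and 1896 CPM in IFE controls.

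Cholesterol synthesis genes had the most one-sided signs of the 29 lists. Of 19 genes, 18 had a negative difference and 1 a positive one, with a median of -0.92, against 0.01 over all autosomal genes. The list's median effect was -0.26 in ORS and 0.45 in IFE. Its mean log2 level was 5.51 and 5.77 in ORS knockouts, 5.97 and 6.01 in ORS controls, 5.41 and 5.49 in IFE knockouts and 5.33 and 4.65 in IFE controls E341 and E360. Knockouts lay below controls in ORS and above them in IFE, and IFE control E360 was the lowest library. The median was -0.55 without that library. Genes of 1 pathway are not independent, and none was called. Fdft1, squalene synthase, had 82.5 and 102 CPM in ORS knockouts, 96.3 and 100.1 CPM in ORS controls, 168 and 133 CPM in IFE knockouts and 68.6 and 83.1 CPM in IFE controls. Its IFE knockouts lay above its IFE controls, and its ORS groups overlapped. Insig1, a sterol-regulated inhibitor of the pathway, had 30.2 and 28.8 CPM in ORS knockouts, 30.99 and 59.7 CPM in ORS controls, 27.96 and 24.7 CPM in IFE knockouts and 10.5 and 10.4 CPM in IFE controls, a difference of -1.83. The unadjusted p in limma was 0.0203 for Fdft1 and 0.0246 for Insig1.

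DNA replication genes had mostly negative differences as well. Of 31 genes, 23 had a negative and 8 a positive difference, with a median of -0.36 that ranged over -0.60 to -0.15 when 1 library was left out, lowest without IFE control E360 and nearest 0 without IFE control E341. Mcm2, a subunit of the replicative helicase, was at 138 and 198 CPM in ORS knockouts, 215 and 282 CPM in ORS controls, 61.99 and 115 CPM in IFE knockouts and 36.9 and 40.3 CPM in IFE controls. Its groups did not overlap in either compartment, and its difference was -1.69 ± 0.49 (SE), with an unadjusted p of 0.00593 in limma. Mcm4, of the same helicase, had 181 and 289 CPM in ORS knockouts, 273 and 291 CPM in ORS controls, 257 and 213 CPM in IFE knockouts and 153 and 161 CPM in IFE controls. The 26 mitosis genes had a median of 0.06, ranging over -0.21 to 0.17 when 1 library was left out, with 14 positive and 12 negative. Cenpf, a kinetochore protein, was among the positive ones at 0.93 and Bub1b, a spindle checkpoint kinase, among the negative ones at -1.02.

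In glycolysis, 14 of 18 genes had a negative difference, with a median of -0.49 that was -0.13 without IFE control E360. Pkm, pyruvate kinase, had 326 and 407 CPM in ORS knockouts, 408 and 391 CPM in ORS controls, 655 and 556 CPM in IFE knockouts and 381 and 333 CPM in IFE controls. Its IFE groups were separated and its ORS groups overlapped. The difference was -0.89 ± 0.28 (SE), with an unadjusted p of 0.00847 in limma. Aldoa, an aldolase, instead had separated ORS groups, at 371 and 471 CPM in knockouts and 698 and 615 CPM in controls, and overlapping IFE groups at 1228 and 1382 CPM in knockouts and 1399.7 and 1187 CPM in controls. Pdk1, a kinase that inhibits pyruvate dehydrogenase, had a positive difference of 1.76.

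Extracellular matrix genes had 15 negative and 3 positive differences of 18 tested, with a median of -0.33, and -0.12 without IFE control E341. Mmp11, a stromelysin-type protease, had 30.2 and 32.99 CPM in ORS knockouts, 10.6 and 28.6 CPM in ORS controls, 15.9 and 6.35 CPM in IFE knockouts and no read in the IFE controls. Fn1, fibronectin, had 47.5 and 67.6 CPM in ORS knockouts, 77.01 and 65.2 CPM in ORS controls, 70.8 and 69.1 CPM in IFE knockouts and 23.5 and 41.9 CPM in IFE controls. Of 12 fibroblast and dermal papilla markers, 3 had no read in any library, and their summed level was 283 and 242 CPM in ORS knockouts, 228 and 207 CPM in ORS controls, 1416 and 977 CPM in IFE knockouts, and 1024 and 865 CPM in IFE controls. Dcn, the fibroblast proteoglycan decorin, was at 286 and 216 CPM in IFE knockouts and 185 and 129 CPM in IFE controls. Sparc, of the same list, was at 1095 and 730 CPM in IFE knockouts and 822 and 686 CPM in IFE controls. Dcn and Sparc made up most of the sum in IFE. Col1a1 and Vim, also listed, went the other way between compartments. Col1a1 was at 5.74 to 18.6 CPM in ORS and at most 0.337 CPM in IFE. Vim was at 10.4 to 20.7 CPM in ORS and at most 0.0814 CPM in IFE. The part of these markers in the matrix genes was not tested.

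Cytokine and chemokine genes of keratinocytes had 11 positive and 2 negative differences of 13 tested, of 23 listed, and none at an unadjusted p below 0.05. The median was 0.94, and 0.27 without ORS knockout E358. Ccl27a, a skin chemokine that attracts T cells, had 37.1 and 22.05 CPM in ORS knockouts, 21.4 and 19.01 CPM in ORS controls, 490.04 and 572 CPM in IFE knockouts and 565 and 920.3 CPM in IFE controls. Interferon-stimulated genes had a median of -0.74 over 29 genes, which was 0.23 without ORS knockout E359. Usp18, an interferon-induced ISG15 protease, had no read in ORS knockouts, 4.41 and 1.73 CPM in ORS controls, 24.5 and 14.3 CPM in IFE knockouts and 13.1 and 5.51 CPM in IFE controls. The 15 MHC genes had a median of -0.50, and -0.05 without ORS control E341.

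Without ORS control E344, 4 of the 29 list medians changed sign, to 0.09 for Notch, -0.16 for suprabasal, -0.02 for mitosis and -0.03 for p53 target genes. The median was then 2.39 for the cornified envelope, -0.79 for cholesterol synthesis, 0.22 for BMP and TGF-beta, -0.21 for interferon-stimulated, -0.05 for bulge and outer root sheath, and -0.23 for ERK feedback and target genes.

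**Figure D5:**
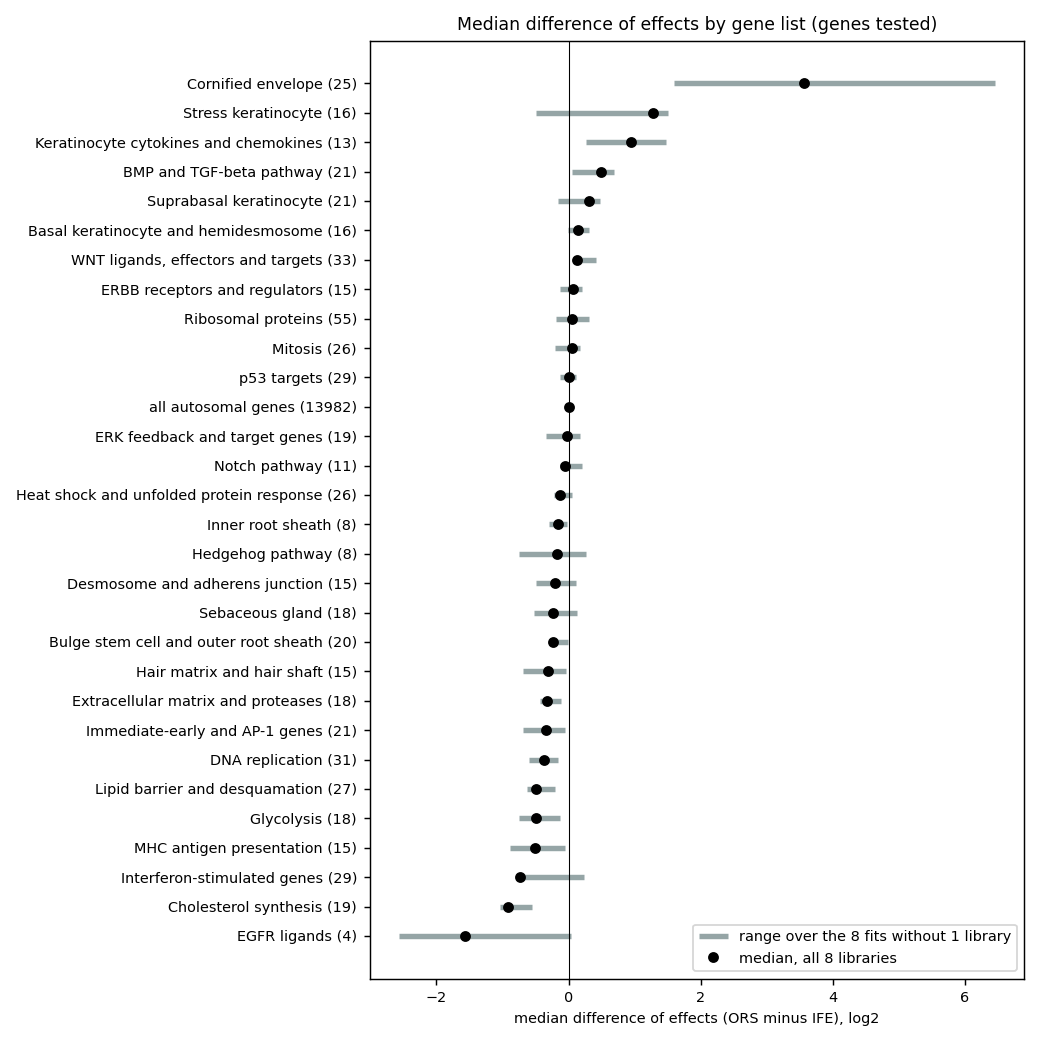
Median difference of effects (ORS minus IFE, log2 units, horizontal) of 29 gene lists and of all autosomal genes, with the number of genes tested in brackets; points are medians with all 8 libraries and grey bars the range over the 8 fits that leave out 1 library. The cornified envelope (3.57, range 1.59 to 6.45) and the cholesterol synthesis list (-0.92, range -1.03 to -0.55) stay on their side of 0, while 15 lists have ranges that cross it. The cornified envelope list was high in ORS knockout E358 and in IFE control E341. Each fit without 1 library keeps at least 1 of them, so its range does not show how the median stands without both.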

How the data were processed

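Per the labels' protocols, a PicoPure kit yielded the RNA of the sorted mouse skin cells and a SMARTer Ultra kit made the cDNA. The authors deposited log2 values per gene and library for 25965 gene names; tested on the files, these are log2 reads per 1e6 of a library total, with 0.9 read standing for a gene without reads. Trim Galore, DESeq2 and the build mm10 appear in the submitters' processing notes. Not given in the sources used here are the aligner, the counter and its use of strand. Overlapping and antisense genes may therefore share reads.

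Whole reads were recovered from the deposited log2 values (at least 99.99% of values whole within 0.2 reads) and scaled to reads in genes with TMM factors (trims of 30% and 5%). Because the deposited unit is log2 and not counts, no count model was used. The 8 libraries were fitted as 4 groups with limma 3.58.1 under R 4.3.3, with statmod 1.5.0 for the robust step, a trended prior and 4 residual degrees of freedom, on log2(CPM + 0.5). Genes needed 10 reads at the median library size in 2 libraries and 15 in total. The contrast was two-sided, and p-values were adjusted over all 14449 tested genes, of which 462 X-linked and 5 Y-linked genes are not described. The count was also made with 23 alternatives. The 2 libraries of a group differed by more than counting error, with chi-square values of 56.9 to 144 per degree of freedom.

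The genes named are Egfr, the 12 positive and 12 negative genes by the rule given with them, and up to 3 members with the smallest p of each of 29 lists; a few genes that this rule takes are not reported here. The 8 marker lists served to check the samples. The members and the lists were chosen with earlier results of these data known. Of the named genes that GENCODE does not hold at the position in the files, 3 were matched by older symbol and position to RefSeq (GRCm38.p6).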

Additional observations from a re-analysis of the deposited data

Results flagged for a closer look

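Xist, the X-inactivation transcript, lies outside the autosomal comparison and differed between genotypes within IFE, with 23925 and 16454 reads in IFE knockouts and 34 and 11 reads in IFE controls. In ORS it had 43878 and 38267 reads in knockouts, and 29 and 41490 reads in controls E341 and E344. The part of sex in the autosomal differences was not tested. Without ORS control E344, where knockouts are female and controls male in both compartments, no gene was called and 337 passed the unadjusted threshold.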

How the results depend on the processing

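The count of genes called stayed at 0 under every alternative but 1, and ranged over 0 to 1 when 1 library was left out. The 659 autosomal genes at an unadjusted p below 0.05 became 996 with all 12 libraries in the fit, 398 without title number E341 in both compartments, and 337 (without ORS control E344) to 1282 (without IFE knockout E359) when 1 library was left out. Of 104 genes, those described by the naming rule and Sgk1, 3 changed the sign of their difference in at least 1 setting, and 15 of the 29 list medians changed sign when 1 library was left out. Gli1 was at 0.059 without E341 in both compartments. When 1 library was left out, Hbegf ranged over -5.26 to 0.015 and Smo over -0.0024 to 0.82. The causes were not tested. The labels do not say what a shared title number stands for. Deviations from the group means correlated at 0.052 for E341 and 0.057 for E358 and E359, which with 2 libraries per group give 1 value, so the numbers were not taken to pair the libraries, although the sex read from the libraries was the same within each shared number. With the number as a replicate block in fixed terms, 1 residual degree of freedom was left, no gene was called and 229 passed the unadjusted threshold. With it as a random replicate block (consensus correlation 0.115), none was called and 758 passed. Other scalings moved the median difference of all genes by at most 0.05. Depth and 2 libraries per group limit the comparison: at the median SE of 0.891, 1688 tested genes have a group without reads.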

Other observations

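Lists of hair and gland programmes had negative medians that moved with single libraries. Sebaceous gland genes had 6 positive and 12 negative differences of 18 tested, with a median of -0.24 that ranged over -0.52 to 0.13 when 1 library was left out, lowest without ORS control E344 and highest without ORS knockout E358. Hair matrix and shaft genes had 4 positive and 11 negative differences, with a median of -0.31 that was -0.70 without ORS knockout E358 and -0.04 without IFE control E341. Msx2, a homeobox factor of the hair matrix, was at 0.149 and 0.0755 CPM in ORS knockouts, 3.85 and 0.925 CPM in ORS controls, 6.89 and 11.9 CPM in IFE knockouts and 1.85 and 2.53 CPM in IFE controls, with an unadjusted p of 0.0153 in limma. Dlx3, another homeobox factor, had a difference of -0.72. Inner root sheath genes had a median of -0.16 over 8 genes that ranged over -0.29 to -0.02, nearest 0 without ORS control E341. Hedgehog genes had a median of -0.18 over 8 genes, which was -0.75 without ORS knockout E359 and 0.27 without ORS knockout E358, and Gli1, a target gene of the pathway, had a difference of -0.53.

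Lipid barrier and desquamation genes had 10 positive and 17 negative differences of 27 tested, with a median of -0.49, and -0.21 without IFE knockout E358. At an unadjusted p below 0.05 in limma, 2 had a positive and 2 a negative difference, against 2.2% and 2.52% of all autosomal genes. Elovl3, a fatty acid elongase, had the smallest, 0.00645, with a difference of -4.29, on 0 and 0.113 CPM in ORS knockouts and 19.997 and 5.24 CPM in ORS controls, and no read in IFE. Spink5, an inhibitor of the proteases that shed corneocytes, had no read in ORS knockouts, 0.49 and 1.002 CPM in ORS controls, 0 and 0.163 CPM in IFE knockouts and 13.8 and 38.6 CPM in IFE controls. Casp14, a caspase of terminal differentiation, had 29.2 and 15.6 CPM in ORS knockouts, 11.8 and 0.617 CPM in ORS controls, 35.1 and 14.2 CPM in IFE knockouts and 72.97 and 59.02 CPM in IFE controls. The 29 p53 targets had a median of 0.01 that ranged over -0.13 to 0.11 when 1 library was left out. At an unadjusted p below 0.05 in limma, 1 was positive and 2 were negative, against 2.2% and 2.52% of all autosomal genes. Apaf1, the scaffold of the apoptosome, had a difference of 3.22 with a p of 0.0139 in limma. Aen, a nuclease, had a difference of -3.19 with a p of 0.0279 in limma. Ddit4l, an inhibitor of mTOR signalling, had a difference of -3.75 with a p of 0.00652 in limma, on 5.83 and 6.67 CPM in IFE knockouts and no read in the other groups. The 26 heat shock and unfolded protein genes had a median of -0.13, which was -0.22 without ORS control E344 and 0.06 without IFE control E360. The 55 ribosomal protein genes had a median of 0.06, which was -0.20 without ORS knockout E358 and 0.31 without ORS knockout E359. Of these ribosomal genes, 24 had a 95% interval wholly within 1 log2 unit of 0.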
